A study of Mus musculus with 9 samples.

Results

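Homeobox genes of the Hoxa and Hoxb clusters were followed in sorted mouse long-term hematopoietic stem cells. They were 10 genes, 6 from the Hoxa cluster (Hoxa3, Hoxa5, Hoxa6, Hoxa7, Hoxa9 and Hoxa10) and 4 from the Hoxb cluster (Hoxb2, Hoxb3, Hoxb4 and Hoxb5). They were chosen by name from the 56262 genes of the count tables. The choice was made with earlier results of these data known, so counts over the 10 genes are not those of an unselected set. RNA-seq was made from 3 groups of wild-type C57BL/6 mice with 3 libraries each. The 5-FU+FMT mice received 5-fluorouracil (5-FU, 250 mg per kg body weight), a cytotoxic drug that kills dividing marrow cells, and then intravenous FMT (5 mg per kg) after 1, 4 and 7 days; the labels do not spell out the abbreviation FMT. The 5-FU+Saline mice received the same dose of 5-FU followed by a vehicle that the labels call saline in the group name and PBS in the treatment entry. Control mice were untreated. The treated mice were killed at day 8. In all groups the cells had been sorted by surface proteins: no lineage markers, then Sca1, c-Kit and CD150 present, and a last gate that the labels write as C48-. Age, sex and the number of mice pooled per library are not stated in the labels. The p-values therefore measure the spread between libraries, which may be partly technical and need not be the spread between mice. That spread beyond counting noise, the biological coefficient of variation, was 3.74% over all genes tested.

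Hox genes encode DNA-binding homeodomain proteins. In the embryo they give segments their identity along the body axis, with genes at the low-numbered end of each cluster used nearer the head and genes at the high-numbered end nearer the tail. In adult blood formation, genes of the Hoxa and Hoxb clusters are most active in stem and early progenitor cells and are silenced as cells mature; HOXA9 together with its partner MEIS1 is known for its part in stem cell self-renewal and in leukemia, and forced HOXB4 is known for expanding stem cells in culture. HOX proteins bind DNA with partners of the TALE homeodomain class (PBX, MEIS and PKNOX proteins). Their transcription is kept on by the KMT2A (MLL) and menin complex and kept off by Polycomb complexes.

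The libraries held between 11098031 and 19270976 counted read pairs, in which the 10 genes together took 4074 to 7959 counts per library. All 10 passed the low-count filter that left 16595 genes for testing. Levels are given as CPM (counts scaled to a common library size with TMM factors) and, between genes, as RPKM (the CPM divided by the exonic length in kilobases). A gene was called changed at an adjusted p under 0.05 in edgeR's quasi-likelihood test. All 15 markers of long-term stem cells were detected in every group, with summed levels of 2296 to 2325 CPM in 5-FU+FMT, 2048 to 2057 CPM in 5-FU+Saline and 2773 to 2824 CPM in Control libraries. Against the sort, Cd48 lay above Slamf1, the gene for CD150, on the per-length scale, at 39.3, 45.2 and 25.8 RPKM for Cd48 and 3.96, 5.61 and 1.36 RPKM for Slamf1 in 5-FU+FMT, 5-FU+Saline and Control libraries. Xist, which is transcribed from the inactive X chromosome of female cells, averaged 682 ± 19.8 CPM in 5-FU+FMT, 1201 ± 20.2 CPM in 5-FU+Saline and 0.870 ± 0.421 CPM in Control libraries (SD, n = 3 each). Ddx3y, a Y-linked gene, averaged 100.04 ± 2.28, 38.9 ± 2.58 and 168 ± 4.23 CPM in the same order of groups, so the sex makeup of the libraries and the treatment cannot be told apart in any comparison below.

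Per length, Hoxa5, Hoxa6, Hoxa7 and Hoxa9 stood highest of the 10 genes in all 3 groups. Hoxa9 had the highest mean, with 28.2 ± 0.856 RPKM in 5-FU+FMT, 19.6 ± 0.433 RPKM in 5-FU+Saline and 36.2 ± 1.17 RPKM in Control libraries (SD, n = 3 each). Hoxa5 came next with 25.3 ± 0.725, 19.5 ± 0.397 and 34.5 ± 1.51 RPKM, and its libraries overlapped those of Hoxa9 in 5-FU+Saline and Control but not in 5-FU+FMT. The order of the next pair changed between groups. Hoxa7 stood above Hoxa6 in 5-FU+FMT (18.5 and 17.6 RPKM, with overlapping libraries) and in 5-FU+Saline (15.8 and 12.5 RPKM, without overlap), and below it in Control (18.9 and 28.2 RPKM, without overlap). Hoxb4 came next in each group with 9.70 ± 0.386, 8.86 ± 0.556 and 9.07 ± 0.412 RPKM, followed by Hoxa10 with 7.09 ± 0.750, 6.37 ± 0.336 and 7.62 ± 0.457 RPKM.

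The remaining 4 genes were at the low end of the scale. Hoxa3 averaged 2.79 RPKM in 5-FU+FMT, 1.90 RPKM in 5-FU+Saline and 4.34 RPKM in Control libraries. Hoxb3 (1.63, 1.31 and 1.74 RPKM) and Hoxb5 (1.61, 1.73 and 1.27 RPKM) had libraries that overlapped in each group, and Hoxb2 was lowest with 0.601, 0.663 and 0.388 RPKM. These levels depend on the length used, because reads falling on bases shared with another gene are not given to either gene by the counting program's default. Hoxb3 shares 52.9% of its exonic bases with the antisense RNA Hoxb3os and Hoxa3 shares 27.1% with 5 other genes; over the unshared bases Hoxb3 came to 3.46, 2.78 and 3.70 RPKM and Hoxa3 to 3.83, 2.60 and 5.96 RPKM in 5-FU+FMT, 5-FU+Saline and Control libraries. On that scale Hoxb3 stood above Hoxb5 (1.67, 1.80 and 1.32 RPKM) with no overlap in any group, and Hoxa3 stood above Hoxb3 in 5-FU+FMT and Control, while the libraries of this pair overlapped in 5-FU+Saline. Hoxa7 shares 20.4% of its exonic bases with the antisense RNA Hoxaas3, and over its unshared bases it came to 23.3, 19.9 and 23.7 RPKM. It then lay above Hoxa6 without overlap in both 5-FU groups, still below it in Control, and its libraries overlapped those of Hoxa5 and Hoxa9 in 5-FU+Saline.

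**Figure D1:**
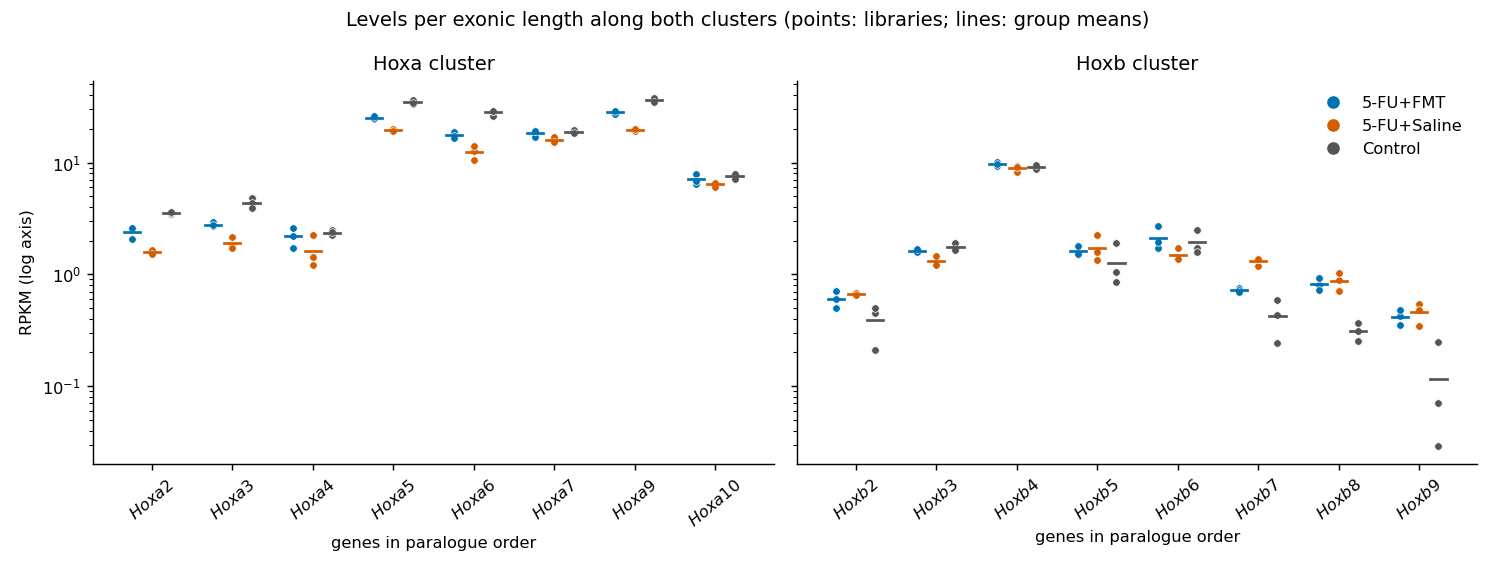
Levels in RPKM (log axis) of 8 Hoxa and 8 Hoxb genes with libraries as points and group means as lines, coloured by group (5-FU+FMT, 5-FU+Saline, Control). Hoxa5, Hoxa6, Hoxa7 and Hoxa9 lie above 10 RPKM in all 9 libraries, and Hoxb4 is the highest Hoxb gene. The other plotted genes lie lower, among them Hoxa4, which sits between Hoxa3 and Hoxa5.

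The comparison of 5-FU+Saline with Control asks what the stem cell gate held 8 days after 5-FU. Of the 10 genes, 7 were lower in 5-FU+Saline than in Control and none was higher, where 32.7% of all genes tested were called lower and 32.8% higher (65.5% in either direction). All 6 Hoxa genes were lower, against 1 of the 4 Hoxb genes, Hoxb3. Beside the 0 higher calls in edgeR, 1 gene (Hoxb2) was higher at an unadjusted p under 0.05, 0 with DESeq2 and 1 with limma-voom. Hoxa3 and Hoxa6 fell most, by 2.26-fold and 2.25-fold, Hoxa9 and Hoxa5 by 1.84-fold and 1.77-fold, and Hoxb3, Hoxa10 and Hoxa7 by 1.33-fold, 1.19-fold and 1.19-fold. The median fitted log2 difference of the 10 genes was -0.33, beside -0.02 for all genes tested.

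Hoxa9 (chr6:52223100-52231089, mm10, minus strand), the Hox gene with the most reads here, had 111, 107 and 111 CPM in the 5-FU+Saline libraries, against 201, 209 and 196 CPM in the Control libraries. The groups lay far apart and each was tight. The fitted log2 difference was -0.88 ± 0.04 (SE; edgeR adjusted p = 5.83e-34). Hoxa10 (chr6:52231197-52240854), known in mouse for expanding progenitors when overexpressed, had 21.5, 21.4 and 19.6 CPM in 5-FU+Saline and 25.9, 25.7 and 23.2 CPM in Control libraries. The groups did not overlap, but the difference was small, with a fitted log2 difference of -0.25 ± 0.09 (edgeR adjusted p = 0.0118). Without the low-count filter its adjusted p was 0.0648, without Control replicate 1 it was 0.0520 and without 5-FU+Saline replicate 3 it was 0.0795. Hoxa7 (chr6:52214491-52221854), a frequent partner of Hoxa9 in leukemia with KMT2A fusions, had 43.6, 48.7 and 44.3 CPM in 5-FU+Saline and 53.8, 55.8 and 53.2 CPM in Control libraries. All 5-FU+Saline libraries were lower than all Control libraries, and the fitted log2 difference was -0.25 ± 0.06 (edgeR adjusted p = 0.000392).

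Hoxa5 (chr6:52201754-52204587), which in human progenitors is described as favouring the myeloid over the erythroid fate, had 36.2, 37.4 and 36.0 CPM in 5-FU+Saline, against 67.8, 62.2 and 64.5 CPM in Control libraries. The groups were far apart, with a fitted log2 difference of -0.83 ± 0.06 (edgeR adjusted p = 3.83e-20). Hoxa6 (chr6:52206288-52208722), the neighbour of Hoxa5, had 11.1, 9.23 and 12.3 CPM in 5-FU+Saline, against 23.0, 25.4 and 25.5 CPM in Control libraries. Its highest 5-FU+Saline library stood well under its lowest Control library, and the fitted log2 difference was -1.17 ± 0.11 (edgeR adjusted p = 3.36e-16). Hoxa3 (chr6:52169062-52213336), a gene that in mouse embryos restrains the blood fate of vessel-lining cells, had 10.8, 10.4 and 13.1 CPM in 5-FU+Saline, against 28.7, 26.1 and 23.5 CPM in Control libraries. The groups were again well apart, with a fitted log2 difference of -1.18 ± 0.10 (edgeR adjusted p = 1.18e-16).

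The Hoxb genes behaved less uniformly. Hoxb4 (chr11:96318267-96321638, plus strand) had 23.9, 21.1 and 23.2 CPM in 5-FU+Saline and 22.9, 22.5 and 24.5 CPM in Control libraries. The groups overlapped throughout, and the fitted log2 difference was -0.04 ± 0.09 (edgeR adjusted p = 0.705). Hoxb3 (chr11:96323326-96347930), whose loss together with Hoxb4 is known to leave mouse stem cells viable with a mild defect in proliferation, had 5.29, 6.24 and 5.16 CPM in 5-FU+Saline and 8.05, 7.15 and 6.98 CPM in Control libraries. The groups did not overlap, and the fitted log2 difference was -0.41 ± 0.16 (edgeR adjusted p = 0.0234). This call was lost without the low-count filter (adjusted p = 0.0873), without Control replicate 1 (0.0916), 5-FU+Saline replicate 1 (0.0676) or 5-FU+Saline replicate 3 (0.0934), and when the counts of the genes sharing its exons were added to it (log2 difference -0.23, adjusted p = 0.161).

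Hoxb5 (chr11:96303336-96306121), whose reporter marks long-term stem cells in mouse marrow, had 3.77, 4.45 and 6.25 CPM in 5-FU+Saline and 2.39, 2.93 and 5.28 CPM in Control libraries. Control replicate 3 stood apart from the other two Control libraries and lay within the 5-FU+Saline range. The fitted log2 difference was 0.41 ± 0.22 (edgeR adjusted p = 0.0986), and without Control replicate 3 it was 0.88 (adjusted p = 0.00233). Hoxb2 (chr11:96350525-96354012), best known for its part in the hindbrain, had 2.31, 2.35 and 2.27 CPM in 5-FU+Saline and 1.57, 0.734 and 1.76 CPM in Control libraries, from 8 to 44 counts per library. All 5-FU+Saline libraries were above all Control libraries, and the fitted log2 difference of 0.72 ± 0.33 was just outside the threshold (edgeR adjusted p = 0.0509; 0.0285 without Control replicate 3). Non-overlap in that direction was seen for 33.7% of all genes tested and in the other direction, which 7 of the 10 genes showed, for 34.1%.

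**Figure D2:**
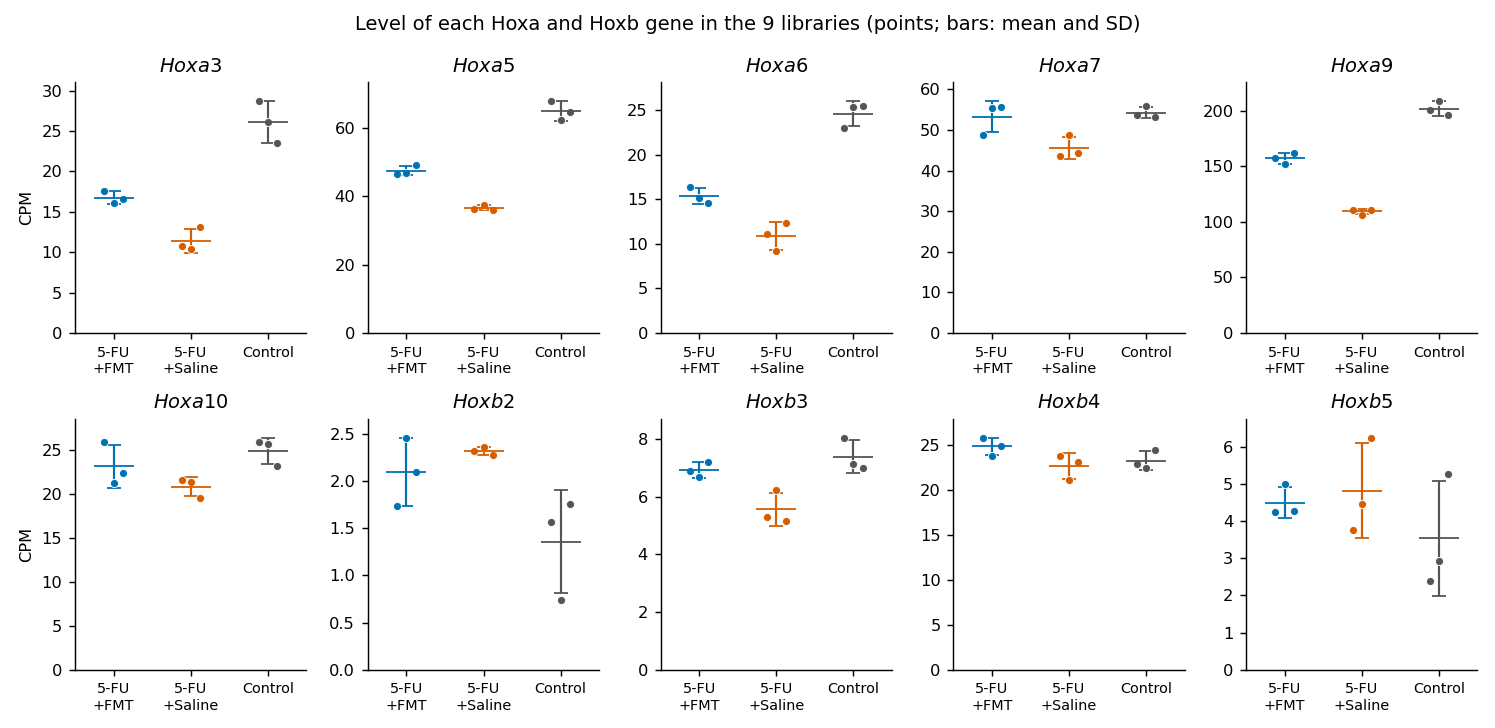
CPM of each of the 10 genes in every library (points), with group mean and SD (bars), in 5-FU+FMT, 5-FU+Saline and Control; each panel has its own axis from 0. Hoxa3, Hoxa5, Hoxa6 and Hoxa9 form 3 separate levels with 5-FU+Saline lowest and Control highest, whereas Hoxb4 lies between 21.1 and 25.9 CPM in all 9 libraries.

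Summed over the cluster, the 6 Hoxa genes gave 234, 234 and 236 CPM in 5-FU+Saline and 400.0, 404 and 386 CPM in Control libraries. The 4 Hoxb genes gave 35.2, 34.2 and 36.9 CPM in 5-FU+Saline and 34.9, 33.3 and 38.5 CPM in Control libraries. The Hoxb sums thus overlapped and the Hoxa sums did not. Each sum drew a large part from a single gene. In 5-FU+Saline libraries Hoxb4 alone gave 23.9, 21.1 and 23.2 CPM, and Hoxa9 alone gave 111, 107 and 111 CPM. The Hoxb share of the summed CPM was 12.8 to 13.5% in 5-FU+Saline and 7.61 to 9.07% in Control libraries. In bulk libraries a lower level cannot be told apart from fewer cells carrying the RNA: fewer cells of a type and less RNA per cell give the same value.

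**Figure D3:**
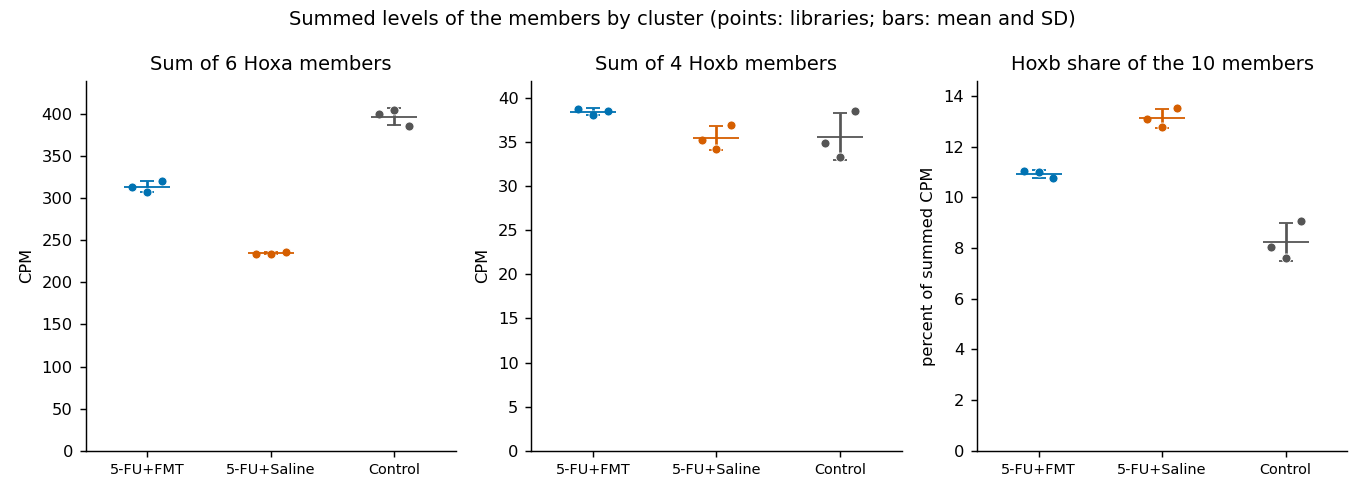
Summed CPM of the 6 Hoxa genes (left) and of the 4 Hoxb genes (middle), and the Hoxb share in percent of the 10 genes' summed CPM (right), for the libraries (points) of 5-FU+FMT, 5-FU+Saline and Control, with mean and SD. The Hoxa sums average 313, 235 and 397 CPM, while the Hoxb sums average 38.4, 35.4 and 35.6 CPM.

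Marker lists of cell types also differed between 5-FU+Saline and Control. Their counts stand beside 32.8% of all genes tested called higher and 32.7% lower in this comparison. In 5-FU+Saline against Control libraries, all 10 B cell markers were called higher (summed level 1010 to 1028 CPM against 61.6 to 63.5 CPM) and 10 of 12 stromal markers were called higher and 2 lower (271 to 277 CPM against 68.1 to 69.0 CPM). Of the 10 erythroid markers 9 were called lower (47.5 to 49.7 CPM against 487 to 493 CPM), of the 10 neutrophil markers 6 were lower and 3 higher (195 to 211 CPM against 2345 to 2381 CPM), and of the 10 progenitor markers 6 were lower and 4 higher (1076 to 1112 CPM against 2449 to 2463 CPM). Of the 15 stem cell markers, which include Hoxb5 and Meis1, 7 were higher and 6 lower. Monocyte and macrophage markers summed to 125 to 136 CPM against 101 to 106 CPM, with 6 of 10 higher and 2 lower, endothelial markers to 608 to 618 CPM against 597 to 623 CPM, with 6 of 10 higher and 3 lower, and T and NK cell markers to 83.5 to 87.5 CPM against 91.2 to 98.8 CPM, with 5 higher and 3 lower of the 9 tested. No marker of these lists was at 0 in all libraries of a group. The part of these cell types in the Hox differences was not tested.

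Promoter windows were matched for 7 of the 10 genes, with 2 for Hoxa10; Hoxb2, Hoxb3 and Hoxb5 had no entry. The windows of the 4 genes called in every comparison of this study (Hoxa3, Hoxa5, Hoxa6 and Hoxa9) and of Hoxb4, which was called in none, are shown to set the genes that changed beside the best expressed gene of the other cluster. They run from 250 bases before to 50 bases after the RefSeq start (RefSeq, GRCm38.p6), 5′ to 3′ on the gene's strand. Capitals mark, on either strand, the HOX core TAAT and the MEIS and PKNOX motif TGACAG; the PBX and HOX composite TGATNNAT was searched as well.
Hoxa3, chr6:52213018-52213317, minus strand: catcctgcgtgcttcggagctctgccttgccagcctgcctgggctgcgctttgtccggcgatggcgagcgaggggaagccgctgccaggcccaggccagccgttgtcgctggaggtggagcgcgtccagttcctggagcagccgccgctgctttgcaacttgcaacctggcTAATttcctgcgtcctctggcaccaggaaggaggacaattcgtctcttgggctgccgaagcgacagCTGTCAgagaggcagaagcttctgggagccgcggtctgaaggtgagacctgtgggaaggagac
Hoxa5, chr6:52204538-52204837, minus strand: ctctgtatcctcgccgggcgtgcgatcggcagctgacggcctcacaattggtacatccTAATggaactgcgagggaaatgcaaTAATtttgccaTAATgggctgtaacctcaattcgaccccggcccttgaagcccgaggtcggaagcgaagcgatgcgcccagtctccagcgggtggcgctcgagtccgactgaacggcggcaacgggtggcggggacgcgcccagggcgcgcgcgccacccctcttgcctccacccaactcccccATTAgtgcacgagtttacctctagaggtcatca
Hoxa6, chr6:52208623-52208922, minus strand: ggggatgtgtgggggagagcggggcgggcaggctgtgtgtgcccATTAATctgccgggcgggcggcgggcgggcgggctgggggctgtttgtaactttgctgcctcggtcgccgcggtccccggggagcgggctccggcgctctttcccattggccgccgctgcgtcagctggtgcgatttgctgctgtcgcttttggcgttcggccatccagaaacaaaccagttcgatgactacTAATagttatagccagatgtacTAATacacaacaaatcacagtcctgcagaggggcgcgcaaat
Hoxa9, chr6:52227321-52227620, minus strand: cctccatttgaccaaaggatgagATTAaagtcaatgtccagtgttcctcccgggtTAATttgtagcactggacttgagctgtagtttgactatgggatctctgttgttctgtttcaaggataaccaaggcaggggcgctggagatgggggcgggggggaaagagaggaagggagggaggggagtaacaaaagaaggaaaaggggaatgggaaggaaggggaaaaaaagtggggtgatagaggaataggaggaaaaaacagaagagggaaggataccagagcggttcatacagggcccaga
Hoxb4, chr11:96318017-96318316, plus strand: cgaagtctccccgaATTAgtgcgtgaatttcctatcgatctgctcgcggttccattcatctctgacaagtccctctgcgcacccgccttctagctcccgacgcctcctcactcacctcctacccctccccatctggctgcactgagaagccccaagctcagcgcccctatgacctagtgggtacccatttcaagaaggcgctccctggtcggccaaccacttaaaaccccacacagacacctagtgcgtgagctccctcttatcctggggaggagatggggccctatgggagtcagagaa

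The core TAAT, searched on both strands, occurred in 7 of the 8 windows, against 58.0% of 32851 RefSeq promoter windows of the same length. Hoxa5 and Hoxa6 held 4 matches each, which for Hoxa6 include a pair that overlap, Hoxa9 held 2, Hoxa3 and Hoxb4 held 1 each, and Hoxa7 held none. TGACAG occurred once, in the Hoxa3 window at base -13 from the start (19.2% of all promoters), and TGATNNAT occurred in none of the 8 windows (8.85% of all promoters). The letters TATAAA occurred in 1 window, the second of Hoxa10 (13.6% of all promoters). The windows of Hoxa5 and Hoxa6 held 29 and 26 CpG dinucleotides and that of Hoxa9 held 4, where the median promoter held 7. The transcript starts of the Hoxa3, Hoxa6, Hoxa7 and Hoxa9 windows, and of the second Hoxa10 window, lie inside the gene spans of the count tables. They are starts of RefSeq transcripts and not the outermost annotated ones.

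The comparison of 5-FU+FMT with 5-FU+Saline asks what FMT changed after the same dose of 5-FU. Of the 10 genes, 5 were higher in 5-FU+FMT than in 5-FU+Saline and none was lower, where 17.7% of all genes tested were called higher and 19.2% lower (36.9% in either direction). The 5 were Hoxa3, Hoxa5, Hoxa6, Hoxa7 and Hoxa9, so that of the Hoxa genes only Hoxa10 was not called, and no Hoxb gene was called. The 0 lower calls in edgeR were also 0 at an unadjusted p under 0.05, with DESeq2 and with limma-voom. Their fold changes ran from 1.17-fold for Hoxa7 to 1.46-fold for Hoxa3. The median fitted log2 difference of the 10 genes was 0.27, beside 0.01 for all genes tested.

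Hoxa9 had 157, 152 and 162 CPM in the 5-FU+FMT libraries, against 111, 107 and 111 CPM in the 5-FU+Saline libraries. Every 5-FU+FMT library was well above every 5-FU+Saline library, with a fitted log2 difference of 0.52 ± 0.04 (edgeR adjusted p = 7.63e-20). Hoxa3 had 17.6, 16.2 and 16.5 CPM in 5-FU+FMT, against 10.8, 10.4 and 13.1 CPM in 5-FU+Saline libraries. The groups did not overlap, and the fitted log2 difference was 0.55 ± 0.11 (edgeR adjusted p = 2.95e-05). Hoxa6 had 16.3, 15.1 and 14.6 CPM in 5-FU+FMT, against 11.1, 9.23 and 12.3 CPM in 5-FU+Saline libraries. Its groups were also apart, with a fitted log2 difference of 0.49 ± 0.11 (edgeR adjusted p = 0.000258).

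Hoxa5 had 46.4, 46.8 and 49.0 CPM in 5-FU+FMT, against 36.2, 37.4 and 36.0 CPM in 5-FU+Saline libraries. Both groups were tight and separate, and the fitted log2 difference was 0.37 ± 0.06 (edgeR adjusted p = 1.31e-06). Hoxa7 had 48.8, 55.4 and 55.6 CPM in 5-FU+FMT, against 43.6, 48.7 and 44.3 CPM in 5-FU+Saline libraries. The lowest 5-FU+FMT library, replicate 1, lay barely above the highest 5-FU+Saline library, and the fitted log2 difference was 0.22 ± 0.06 (edgeR adjusted p = 0.00290). Hoxa10 had 25.9, 21.2 and 22.4 CPM in 5-FU+FMT, against 21.5, 21.4 and 19.6 CPM in 5-FU+Saline libraries. Its groups overlapped, and the fitted log2 difference of 0.16 ± 0.09 did not pass the test (edgeR adjusted p = 0.174).

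None of the 4 Hoxb genes passed the test. Hoxb2, Hoxb3 and Hoxb5 had fewer counts and larger SEs than most Hoxa genes, so a missing call does not show that they were unchanged. The fitted difference of Hoxb3 was larger than that of Hoxa7, which was called. Hoxb4 had 25.9, 23.9 and 24.9 CPM in 5-FU+FMT, against 23.9, 21.1 and 23.2 CPM in 5-FU+Saline libraries, with a fitted log2 difference of 0.13 ± 0.09 (edgeR adjusted p = 0.246). Hoxb3 had 6.88, 6.67 and 7.22 CPM in 5-FU+FMT, against 5.29, 6.24 and 5.16 CPM in 5-FU+Saline libraries, with a fitted log2 difference of 0.32 ± 0.16 (edgeR adjusted p = 0.124). In both genes all 5-FU+FMT libraries were above all 5-FU+Saline libraries, as in 7 of the 10 genes in all and in 22.6% of the genes tested. For Hoxb4 the gap was minimal, with 23.87 CPM in the lowest 5-FU+FMT and 23.86 CPM in the highest 5-FU+Saline library. Hoxb5 had 4.24, 4.99 and 4.26 CPM in 5-FU+FMT, against 3.77, 4.45 and 6.25 CPM in 5-FU+Saline libraries, with a fitted log2 difference of -0.12 ± 0.22 (edgeR adjusted p = 0.718). Hoxb2 had 1.74, 2.46 and 2.09 CPM in 5-FU+FMT, against 2.31, 2.35 and 2.27 CPM in 5-FU+Saline libraries, with a fitted log2 difference of -0.14 ± 0.31 (edgeR adjusted p = 0.760). Both of these genes had overlapping groups, and Hoxb2 rested on 27 to 44 counts per library.

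Summed over the cluster, the Hoxa genes gave 313, 307 and 319.9 CPM in 5-FU+FMT, against 234, 234 and 236 CPM in 5-FU+Saline libraries. The Hoxb genes gave 38.7, 38.0 and 38.5 CPM in 5-FU+FMT, against 35.2, 34.2 and 36.9 CPM in 5-FU+Saline libraries. Both the Hoxa and the Hoxb sums were thus higher in 5-FU+FMT without overlap. The Hoxb share of the summed CPM was 10.7 to 11.02% in 5-FU+FMT and 12.8 to 13.5% in 5-FU+Saline libraries. The marker sums differed between these groups as well, where 17.7% of all genes tested were called higher and 19.2% lower. In 5-FU+FMT against 5-FU+Saline libraries the 10 B cell markers, all called lower, summed to 470.2 to 518 CPM against 1010 to 1028 CPM, and the stromal markers, with 9 of 12 lower and 2 higher, to 88.0 to 93.0 CPM against 271 to 277 CPM. Erythroid markers, 8 of 10 higher, summed to 215 to 229 CPM against 47.5 to 49.7 CPM, neutrophil markers, 6 of 10 higher and 3 lower, to 924 to 1042 CPM against 195 to 211 CPM, and progenitor markers, 6 of 10 higher and 3 lower, to 1612 to 1668 CPM against 1076 to 1112 CPM. Of the 15 stem cell markers 5 were higher and 6 lower. Endothelial markers (569.9 to 604 CPM against 608 to 618 CPM; 2 of 10 higher, 5 lower), monocyte and macrophage markers (93.8 to 100.5 CPM against 125 to 136 CPM; 2 of 10 higher, 5 lower) and T and NK cell markers (92.2 to 95.7 CPM against 83.5 to 87.5 CPM; 2 of 9 tested higher, 1 lower) complete the lists. Their part in the Hox differences was not tested.

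The comparison of 5-FU+FMT with Control asks what distance to the untreated state was left at day 8 under FMT. Of the 10 genes, 4 were lower in 5-FU+FMT than in Control and none was higher, where 21.6% of all genes tested were called lower and 25% higher (46.6% in either direction). The 4 were Hoxa3, Hoxa5, Hoxa6 and Hoxa9. The 0 higher calls in edgeR were also 0 at an unadjusted p under 0.05, with DESeq2 and with limma-voom. Over all genes, TMM factors gave 4151 higher and 3584 lower calls, and upper-quartile factors gave 3315 and 4559. The median fitted log2 difference of the 10 genes was -0.09, beside -0.01 for all genes tested. This comparison shares its libraries with the 2 before it, so the 3 sets of calls are not independent.

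Hoxa9, with 157, 152 and 162 CPM in 5-FU+FMT and 201, 209 and 196 CPM in Control libraries, had a fitted log2 difference of -0.36 ± 0.04 (edgeR adjusted p = 1.13e-13). Hoxa6, with 16.3, 15.1 and 14.6 CPM in 5-FU+FMT and 23.0, 25.4 and 25.5 CPM in Control libraries, had -0.68 ± 0.10 (edgeR adjusted p = 5.08e-08). In these 2 genes, and in Hoxa3 and Hoxa5, every 5-FU+FMT library was below every Control library, which 25.6% of all genes tested showed. Hoxa3 had a fitted log2 difference of -0.63 ± 0.10 (edgeR adjusted p = 2.13e-07) and Hoxa5 had -0.45 ± 0.06 (edgeR adjusted p = 1.85e-09). Hoxa7, with 48.8, 55.4 and 55.6 CPM in 5-FU+FMT and 53.8, 55.8 and 53.2 CPM in Control libraries, overlapped between the groups, and its fitted log2 difference was -0.03 ± 0.06 (edgeR adjusted p = 0.771). The other genes also overlapped between these groups. Their fitted log2 differences were -0.10 ± 0.09 for Hoxa10, -0.09 ± 0.16 for Hoxb3, 0.09 ± 0.09 for Hoxb4, 0.29 ± 0.23 for Hoxb5 and 0.57 ± 0.34 for Hoxb2, with edgeR adjusted p-values between 0.165 and 0.672. Hoxb5 had an adjusted p of 0.0146 without Control replicate 3 (log2 difference 0.77).

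Set side by side, Hoxa3 had a fitted log2 difference of -1.18 in 5-FU+Saline against Control, 0.55 in 5-FU+FMT against 5-FU+Saline and -0.63 in 5-FU+FMT against Control. Hoxa9 had -0.88, 0.52 and -0.36 in the same 3 comparisons, and Hoxa7 had -0.25, 0.22 and -0.03. The 5-FU+FMT mean lay between the 5-FU+Saline and Control means in 9 of the 10 genes (90%), beside 74.6% of all genes tested. The exception was Hoxb4, whose 5-FU+FMT mean of 24.9 ± 0.990 CPM stood above 22.7 ± 1.43 CPM in 5-FU+Saline and 23.3 ± 1.06 CPM in Control libraries (SD, n = 3 each).

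**Figure D4:**
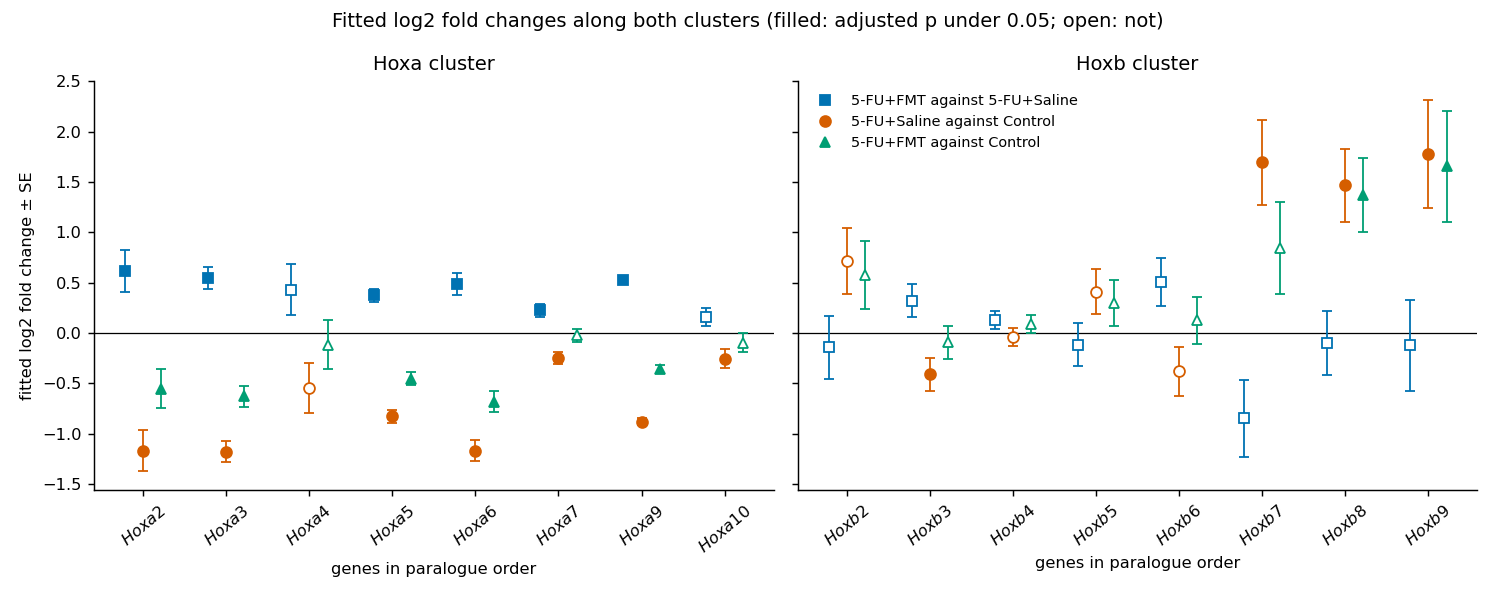
Fitted log2 fold changes with SE of 8 Hoxa genes (left) and 8 Hoxb genes (right) in the 3 comparisons; filled symbols passed an adjusted p under 0.05 and open ones did not. Hoxa2, Hoxa3, Hoxa5, Hoxa6 and Hoxa9 pass in all 3 comparisons with 5-FU+Saline below and 5-FU+FMT above it, and Hoxb7, Hoxb8 and Hoxb9 lie above 0 in 5-FU+Saline against Control.

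Other genes of both clusters were read from a fixed list of 11, of which 6 passed the low-count filter. Over all genes tested, the shares called higher and lower were 32.8% and 32.7% in 5-FU+Saline against Control. They were 17.7% and 19.2% in 5-FU+FMT against 5-FU+Saline and 25% and 21.6% in 5-FU+FMT against Control. In 5-FU+Saline against Control 3 of the 6 were higher and 1 lower, in 5-FU+FMT against 5-FU+Saline 1 was higher and none lower (1, Hoxb7, at an unadjusted p under 0.05 in edgeR, with a stricter filter and in a fit of these 2 groups alone, with adjusted p = 0.0410 and 0.0481, and none with DESeq2 or limma-voom), and in 5-FU+FMT against Control 2 were higher and 1 lower. Hoxa2, a regulator of the second pharyngeal arch, averaged 4.28 ± 0.545 CPM in 5-FU+FMT, 2.80 ± 0.122 CPM in 5-FU+Saline and 6.28 ± 0.147 CPM in Control libraries. It passed in each comparison, with log2 differences of -1.17 ± 0.20 for 5-FU+Saline against Control, 0.62 ± 0.21 for 5-FU+FMT against 5-FU+Saline and -0.55 ± 0.20 for 5-FU+FMT against Control (edgeR adjusted p = 6.89e-07, 0.0168 and 0.0160). The Hoxa2 call between 5-FU+FMT and 5-FU+Saline was lost without 5-FU+Saline replicate 3, 5-FU+FMT replicate 1 or 5-FU+FMT replicate 3 (adjusted p = 0.0553, 0.0670 and 0.0664), and that between 5-FU+FMT and Control without the low-count filter, Control replicate 3 or 5-FU+FMT replicate 2 (0.0582, 0.0524 and 0.0975). Hoxa4 (3.48, 2.58 and 3.77 CPM) and Hoxb6 (4.14, 2.91 and 3.802 CPM in 5-FU+FMT, 5-FU+Saline and Control) passed in no comparison; for Hoxa4 in 5-FU+Saline against Control the log2 difference was -0.55 ± 0.25 (edgeR adjusted p = 0.0507). That difference of Hoxa4 did pass as lower with upper-quartile factors, the stricter filter, limma-voom and the replicate block (adjusted p = 0.0258, 0.0454, 0.0363 and 0.0352), and without 5-FU+Saline replicate 2 (0.0084) or 5-FU+FMT replicate 1 (0.0479).

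The high-numbered Hoxb genes were near the detection limit in Control. Hoxb8, which in culture blocks myeloid maturation when forced on, had 33, 27 and 34 counts in 5-FU+FMT, 28, 37 and 52 counts in 5-FU+Saline and 9, 9 and 18 counts in Control libraries. Its log2 difference was 1.47 ± 0.36 in 5-FU+Saline against Control and 1.37 ± 0.37 in 5-FU+FMT against Control (edgeR adjusted p = 0.000285 and 0.00141). Hoxb9 had 17, 13 and 17 counts in 5-FU+FMT, 21, 14 and 24 counts in 5-FU+Saline and 1, 2 and 12 counts in Control libraries. Control replicate 3 was again the highest Control library. The log2 difference of Hoxb9 was 1.78 ± 0.54 in 5-FU+Saline against Control and 1.66 ± 0.55 in 5-FU+FMT against Control (edgeR adjusted p = 0.00285 and 0.00982). Without Control replicate 3 the log2 differences of Hoxb9 were 3.16 and 3.04, and without Control replicate 1 the second was 1.23 (adjusted p = 0.0850). Hoxb7 had 18, 16 and 15 counts in 5-FU+FMT, 28, 33 and 41 counts in 5-FU+Saline and 9, 10 and 7 counts in Control libraries, with a log2 difference of 1.70 ± 0.42 in 5-FU+Saline against Control (edgeR adjusted p = 0.000321). In these 3 genes, then, 5-FU+Saline was higher than Control while the 6 Hoxa genes were lower.

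Hoxa13 and Hoxb13 had no count in any library. None of the 18 genes of the Hoxc and Hoxd clusters passed the low-count filter. Together they reached 0.650 to 1.05 CPM in 5-FU+FMT, 1.19 to 1.72 CPM in 5-FU+Saline and 0.367 to 1.34 CPM in Control libraries, while the 10 Hoxa and Hoxb genes reached 345 to 358 CPM, 268 to 273 CPM and 424 to 437 CPM.

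RNAs transcribed from the same loci, mostly from the opposite strand, matter for reading these counts, since the counting used no strand. Of 11 listed noncoding RNAs of the clusters 5 were tested. In 5-FU+Saline against Control 2 were lower (32.7% of all genes tested), in 5-FU+FMT against 5-FU+Saline 1 was higher (17.7%), and in 5-FU+FMT against Control 1 was lower (21.6%). None moved the other way, which 32.8%, 19.2% and 25% of all genes tested did. At an unadjusted p under 0.05 in edgeR 1 more, Hoxb5os, was higher in 5-FU+Saline and in 5-FU+FMT than in Control, and limma-voom called it in the first of these comparisons where DESeq2 did not. Hoxaas2, antisense to Hoxa3, averaged 4.83 ± 0.917 CPM in 5-FU+FMT, 2.76 ± 0.482 CPM in 5-FU+Saline and 5.99 ± 0.367 CPM in Control libraries. Its log2 difference was -1.09 ± 0.21 in 5-FU+Saline against Control and 0.79 ± 0.21 in 5-FU+FMT against 5-FU+Saline (edgeR adjusted p = 4.44e-06 and 0.00197), so it moved the same way as Hoxa3. Hoxaas3, antisense to Hoxa3 and Hoxa7, averaged 6.05 ± 0.126, 4.82 ± 1.59 and 8.35 ± 1.996 CPM in the 3 groups and was lower in 5-FU+Saline and in 5-FU+FMT than in Control (log2 differences -0.83 ± 0.18 and -0.48 ± 0.18; edgeR adjusted p = 4.82e-05 and 0.0206); the second call was lost with DESeq2 (adjusted p = 0.0653), without Control replicate 3 (log2 difference -0.26, adjusted p = 0.328) and without 5-FU+FMT replicate 3 (0.0565). The gene 5730596B20Rik, which also overlaps Hoxa3 on the other strand, averaged 7.46 ± 0.440, 3.90 ± 0.740 and 8.01 ± 1.11 CPM, with a log2 difference of -1.04 ± 0.17 in 5-FU+Saline against Control and 0.92 ± 0.18 in 5-FU+FMT against 5-FU+Saline (edgeR adjusted p = 2.79e-07 and 1.25e-05).

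In the Hoxb cluster, Hoxb3os, which overlaps Hoxb2 and Hoxb3, averaged 1.46 ± 0.325, 2.02 ± 0.836 and 1.47 ± 0.243 CPM in 5-FU+FMT, 5-FU+Saline and Control libraries, and Hoxb5os, which overlaps Hoxb5, averaged 2.28 ± 0.335, 2.22 ± 0.484 and 1.39 ± 0.332 CPM. Neither passed in any comparison of the main fit. In 5-FU+Saline against Control Hoxb5os passed as higher with RLE factors and the stricter filter (edgeR adjusted p = 0.0478 and 0.0422). It also passed there with limma-voom (adjusted p = 0.0446) and without Control replicate 2 or 5-FU+Saline replicate 2 (edgeR adjusted p = 0.0392 and 0.0294). Against Control, 5-FU+FMT passed with the stricter filter and without Control replicate 2 (edgeR adjusted p = 0.0488 and 0.0492). Gm29430, a further antisense partner of Hoxa3, averaged 1.10 ± 0.0537, 0.850 ± 0.386 and 1.88 ± 0.941 CPM and was lower in 5-FU+Saline than in Control (log2 difference -1.14 ± 0.42; edgeR adjusted p = 0.0152; 0.197 without Control replicate 2 and 0.132 without 5-FU+Saline replicate 3). Gm28308, a same-strand gene that spans Hoxa3, and Mir196b, the microRNA within Hoxa9, had no count in any library. Hoxa5, Hoxa6, Hoxa10 and Hoxb4 share no exonic base with another gene. When each gene was summed with the genes that share its exons, Hoxa3 gave 36.9, 34.4 and 37.3 CPM in 5-FU+FMT, 24.2, 22.1 and 24.9 CPM in 5-FU+Saline and 49.7, 50.9 and 50.4 CPM in Control libraries, and the 3 groups remained separate. Summed in this way, Hoxb2 and Hoxb5 passed as higher in 5-FU+Saline than in Control, and Hoxb5 also as higher in 5-FU+FMT than in Control. These sums add the whole counts of the other genes. They do not recover the reads on shared bases, which went to neither gene, and so cannot show how those reads would change the calls.

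Partners of the HOX proteins were read from a list of 9 TALE genes, of which 8 were tested. In 5-FU+Saline against Control 2 were higher and 4 lower (median log2 difference -0.20, beside -0.02 for all genes tested), in 5-FU+FMT against 5-FU+Saline 3 were higher and 1 lower (median 0.05, beside 0.01), and in 5-FU+FMT against Control 2 were higher and 4 lower (median -0.17, beside -0.01). Of all genes tested, 65.5%, 36.9% and 46.6% were called in either direction in these comparisons, so the counts alone do not set the TALE genes apart. Meis1, the main cofactor of HOXA9, averaged 222 ± 5.17 CPM in 5-FU+FMT, 195 ± 4.06 CPM in 5-FU+Saline and 277 ± 12.8 CPM in Control libraries. Its log2 difference was -0.51 ± 0.03 in 5-FU+Saline against Control and 0.19 ± 0.03 in 5-FU+FMT against 5-FU+Saline (edgeR adjusted p = 2.18e-23 and 3.69e-06). Pbx4 averaged 25.9 ± 1.40, 18.6 ± 2.21 and 32.8 ± 2.202 CPM in the 3 groups and moved the same way (log2 differences -0.82 ± 0.09 and 0.48 ± 0.09; edgeR adjusted p = 3.06e-13 and 9.52e-06).

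Pknox1 and Pbx3 went the other way. Pknox1 averaged 53.9 ± 2.09 CPM in 5-FU+FMT, 62.3 ± 1.71 CPM in 5-FU+Saline and 44.0 ± 1.68 CPM in Control libraries, and was higher in 5-FU+Saline than in Control (log2 difference 0.50 ± 0.06; edgeR adjusted p = 2.57e-11) and lower in 5-FU+FMT than in 5-FU+Saline (-0.21 ± 0.06; edgeR adjusted p = 0.00291). Pbx3, described as a partner of HOXA9 in leukemia, averaged 15.4 ± 0.767, 17.1 ± 1.55 and 10.01 ± 1.47 CPM and was higher in 5-FU+Saline and in 5-FU+FMT than in Control (log2 differences 0.77 ± 0.12 and 0.62 ± 0.12; edgeR adjusted p = 2.19e-08 and 1.01e-05). Meis3 averaged 2.41 ± 0.462, 1.94 ± 0.316 and 6.68 ± 0.317 CPM and was lower in both 5-FU groups than in Control (log2 differences -1.47 ± 0.23 in 5-FU+FMT and -1.79 ± 0.23 in 5-FU+Saline; edgeR adjusted p = 9.4e-08 and 2.13e-10).

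**Figure D5:**
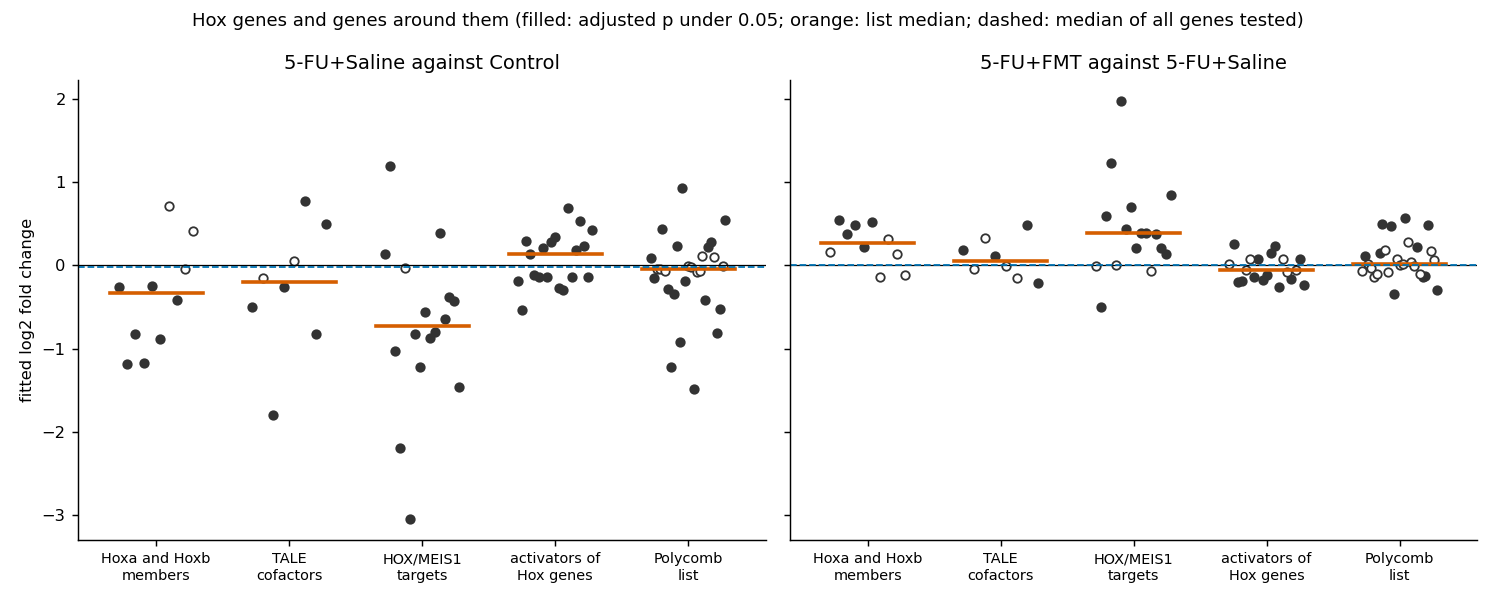
Fitted log2 fold changes of the tested genes of 5 lists (points; filled where adjusted p was under 0.05) in 5-FU+Saline against Control (left) and 5-FU+FMT against 5-FU+Saline (right), with each list's median (orange) and the median of all genes tested (dashed blue). The medians of the 10 Hox genes are -0.33 and 0.27, and those of the HOX and MEIS1 target list are -0.72 and 0.38.

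Genes described in blood cells as targets of HOX and MEIS1 proteins were a list of 16, all tested. In 5-FU+Saline against Control 3 were higher and 12 lower (median log2 difference -0.72), in 5-FU+FMT against 5-FU+Saline 12 were higher and 1 lower (median 0.38), and in 5-FU+FMT against Control 3 were higher and 12 lower (median -0.37), beside medians of -0.02, 0.01 and -0.01 for all genes tested. The shares of all genes tested called higher and lower were 32.8% and 32.7%, 17.7% and 19.2%, and 25% and 21.6% in these comparisons. Flt3, a cytokine receptor of progenitors, averaged 279.5 ± 14.8 CPM in 5-FU+FMT, 70.9 ± 2.47 CPM in 5-FU+Saline and 584 ± 8.81 CPM in Control libraries. Its log2 difference was -3.04 ± 0.04 in 5-FU+Saline against Control and 1.98 ± 0.04 in 5-FU+FMT against 5-FU+Saline (edgeR adjusted p = 6.02e-72 and 1.36e-57). Sox4, a transcription factor of progenitors, averaged 464 ± 13.0, 258 ± 6.21 and 709 ± 7.83 CPM (log2 differences -1.46 ± 0.03 and 0.85 ± 0.03 in the same comparisons; edgeR adjusted p = 6.53e-57 and 4.12e-40). Ccnd3, a G1 cyclin, was the opposite case, with 218 ± 1.71, 309 ± 8.17 and 135 ± 5.80 CPM (log2 differences 1.198 ± 0.03 and -0.50 ± 0.03; edgeR adjusted p = 1.35e-45 and 3.5e-23). Mecom, a stem cell transcription factor, averaged 147 ± 5.47, 154 ± 5.10 and 117 ± 0.525 CPM, and was higher in 5-FU+Saline than in Control (log2 difference 0.39 ± 0.04; edgeR adjusted p = 2.79e-14). Several of these genes, Flt3 and Mecom among them, also stand on the progenitor or stem cell marker lists, so the list is not separate evidence on HOX activity.

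Among 22 listed activators of Hox transcription, 19 were tested, and Cdx1, Cdx2 and Cdx4 had no count in any library. In 5-FU+Saline against Control 10 were higher and 9 lower (median log2 difference 0.14), in 5-FU+FMT against 5-FU+Saline 5 were higher and 8 lower (median -0.05), and in 5-FU+FMT against Control 6 were higher and 4 lower (median -0.05), beside medians of -0.02, 0.01 and -0.01 for all genes tested. Of all genes tested, 32.8% were called higher and 32.7% lower in the first comparison, 17.7% and 19.2% in the second and 25% and 21.6% in the third. Aff4, a scaffold of the super elongation complex, averaged 192 ± 7.93 CPM in 5-FU+FMT, 160 ± 5.46 CPM in 5-FU+Saline and 231 ± 5.38 CPM in Control libraries (log2 differences -0.53 ± 0.03 for 5-FU+Saline against Control and 0.26 ± 0.04 for 5-FU+FMT against 5-FU+Saline; edgeR adjusted p = 4.17e-23 and 3.55e-09). Mllt3, a reader of histone acylation in the same complex, averaged 98.0 ± 4.57, 83.1 ± 0.555 and 102 ± 6.16 CPM (log2 differences -0.30 ± 0.05 and 0.24 ± 0.05; edgeR adjusted p = 6.51e-08 and 2.76e-05). Psip1, which tethers menin and KMT2A to chromatin, went the other way with 204 ± 2.03, 229 ± 1.48 and 157 ± 5.36 CPM (log2 differences 0.54 ± 0.03 and -0.17 ± 0.03; edgeR adjusted p = 4.03e-24 and 2.27e-05). Npm1, the nucleolar protein whose mutant form accompanies high HOX expression in human leukemia, averaged 1008 ± 34.7, 1208 ± 10.4 and 746 ± 14.8 CPM (log2 differences 0.69 ± 0.02 and -0.26 ± 0.02; edgeR adjusted p = 2.32e-39 and 2.41e-15).

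All 27 genes of the Polycomb list were tested. In 5-FU+Saline against Control 7 were higher and 10 lower (median log2 difference -0.05), in 5-FU+FMT against 5-FU+Saline 7 were higher and 4 lower (median 0.02), and in 5-FU+FMT against Control 5 were higher and 8 lower (median -0.03), beside all-gene medians of -0.02, 0.01 and -0.01. The shares called in either direction over all genes tested were 65.5%, 36.9% and 46.6%. Ezh2, the enzyme that methylates histone H3 at the Polycomb site, averaged 183 ± 1.15 CPM in 5-FU+FMT, 232 ± 6.31 CPM in 5-FU+Saline and 121 ± 3.21 CPM in Control libraries (log2 differences 0.93 ± 0.04 for 5-FU+Saline against Control and -0.34 ± 0.03 for 5-FU+FMT against 5-FU+Saline; edgeR adjusted p = 5.84e-37 and 5.77e-14). Its partner Suz12 averaged 188 ± 1.75, 230.3 ± 3.65 and 158 ± 3.04 CPM (0.54 ± 0.03 and -0.29 ± 0.03; edgeR adjusted p = 1.57e-24 and 6.53e-12). Cbx7, the chromobox reader prominent in stem cells, averaged 82.9 ± 1.07, 58.8 ± 2.10 and 137 ± 0.900 CPM (-1.22 ± 0.05 and 0.49 ± 0.05; edgeR adjusted p = 2.58e-37 and 3.6e-14). Kdm6b, which removes the Polycomb mark and so does not act as the list's name says, averaged 245 ± 7.73, 165 ± 1.95 and 459.5 ± 22.2 CPM (-1.48 ± 0.03 and 0.57 ± 0.03; edgeR adjusted p = 5.21e-53 and 2.63e-25).

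The genes most like Hoxa9 over the 9 libraries were Lonrf1, Dedd2, Klhl24 and Ppcdc, with root mean square differences between centred log2 profiles of 0.0309, 0.0386, 0.0411 and 0.0411, out of 9884 protein-coding genes outside the Hox clusters with at least 10 CPM in a group. Lonrf1 averaged 18.3 CPM in 5-FU+FMT, 13.0 CPM in 5-FU+Saline and 24.1 CPM in Control libraries, and Klhl24, an adaptor of ubiquitin ligases, 165, 118 and 218 CPM. The genes most like Hoxb4 were Sipa1l1, Rbpj, Tspan13 and 4931414P19Rik, with differences of 0.0379, 0.0394, 0.0409 and 0.0460. Rbpj, the DNA-binding factor of Notch signalling, averaged 78.7, 74.5 and 76.9 CPM in 5-FU+FMT, 5-FU+Saline and Control libraries.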

How the data were processed

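Long-term stem cell RNA was sequenced as 9 paired-end libraries. The authors deposited 1 table of raw counts per gene for each library, made without strand or multimapping options per the file headers, which also give each gene's exonic length. The submitters' processing notes name featureCounts 2.0.1 for counting, HISAT2 2.2.1 with mm10, Trim Galore 0.6.5 and SAMtools. Groups came from the sample titles.

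From the counts, edgeR 4.0.16 fitted all 9 libraries in 3 groups after filterByExpr (minimum count 10) and TMM scaling, and its quasi-likelihood F test was adjusted by Benjamini-Hochberg over 16595 genes, with calls at 0.05. A test on simulated counts had changes built into 200 genes and recovered most of them. The comparisons here had 6123 to 10872 genes called, so the test does not show how the scaling performs with that many changes. CPM used the TMM-scaled size of each library, and RPKM also the exonic length. Total counts of 11098031 to 19270976 per library limit the precision for genes with few counts, such as Hoxb2. No pair of libraries of a group agreed within sampling noise. Coordinates are those of the count tables; promoters are RefSeq's for GRCm38.p6, the same build as mm10.

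Alternatives were other scaling factors, filters and tools (DESeq2 1.42.0, limma 3.58.1), a replicate block, fits of 2 groups only, sums over genes that share exons, and each library left out. The genes and lists were chosen with earlier results of these data known. Named were all 10 genes, other Hox genes and cluster RNAs reaching 1 CPM in a group, genes sharing exons with them, up to 4 called genes per other list and comparison by smallest p with at most 2 in each direction, and the 4 genes nearest in profile to Hoxa9 and to Hoxb4 on log2(CPM + 0.5).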

Additional observations from a re-analysis of the deposited data

How the results depend on the processing

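Of the 540 refitted values of the 10 genes, 516 kept their direction and side of the threshold, 10 gained a call, 8 lost one and 6 changed sign without being called. No Hoxa3, Hoxa5, Hoxa6 or Hoxa9 call was lost under any alternative run, nor were the Hoxa7 calls. The count of genes higher in 5-FU+Saline than in Control was 0; it was 1 with RLE factors, with a stricter filter and with limma-voom (Hoxb2), 2 with shared-exon sums (Hoxb2 and Hoxb5), and 0 to 2 with a library left out. The count higher in 5-FU+FMT than in Control was 0; it was 1 with shared-exon sums (Hoxb5) and 0 to 1 with a library left out. The count lower in 5-FU+Saline than in Control was 7. It was 5 without the low-count filter, 6 with shared-exon sums and 5 to 7 with a library left out. The cause was not tested. Without the low-count filter the log2 difference turned to 0.00344 for Hoxb4 in 5-FU+Saline against Control, and to 0.0174 for Hoxa7 and 0.0289 for Hoxb3os in 5-FU+FMT against Control. With a library left out, log2 differences that crossed 0 ran from -0.0684 to 0.0123 for Hoxb4 in 5-FU+Saline against Control. In 5-FU+FMT against 5-FU+Saline they ran from -0.263 to 0.126 for Hoxb5, -0.229 to 0.0334 for Hoxb8, -0.281 to 0.00464 for Hoxb9 and -0.124 to 0.198 for Hoxb5os. In 5-FU+FMT against Control they ran from -0.0524 to 0.0377 for Hoxa7, -0.258 to 0.0317 for Hoxa4, -0.0790 to 0.355 for Hoxb6, -0.139 to 0.160 for Hoxb3os and -0.190 to 0.0171 for 5730596B20Rik. None of these was called. Upper-quartile factors gave 3315 genes higher and 4559 lower in 5-FU+FMT against Control, where TMM gave 4151 and 3584, and left the counts of the 10 genes as they were. Same-numbered libraries did not deviate together (r from -0.00717 to 0.0156 over 9 pairs), which does not exclude a shared batch. The labels do not say that they are paired. With the replicate block 10847, 6193 and 7717 genes were called in the 3 comparisons, against 10872, 6123 and 7735 without it. With it Hoxa4 gained a call in 5-FU+Saline against Control (log2 difference -0.58, edgeR adjusted p = 0.0352), as it did in 5 other fits. Hoxa4 and Hoxb6 also passed in 5-FU+FMT against 5-FU+Saline with 1 library left out (adjusted p = 0.0435 without 5-FU+Saline replicate 2 and 0.0473 without 5-FU+FMT replicate 1). The per-length levels over unshared bases were chosen after seeing the data. Depth limits Hoxb2 and the genes from Hoxb7 to Hoxb9, which had few counts per library.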
